A study of Homo sapiens with 4 samples.

Results

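Nucleoporins build the nuclear pore, and the karyopherins carry cargo through it. The transcripts of these genes were examined in HEK293T cells, a line derived from human embryonic kidney, of which 2 libraries came from control cells and 2 from cells treated with ascorbic acid (vitamin C). The labels give wild type as the genotype of the controls, a treatment of 36 h for RNA methylation after 24 h of seeding, and a change of medium every 6 h; they give no dose. GLORI was run on 300 ng of mRNA per the labels' protocol: unmethylated adenosine is deaminated and read as G, whereas N6-methyladenosine (m6A) is still read as A, so the share of A among A plus G reads is the m6A level of a site. The comparison asks what ascorbic acid, a cofactor that keeps the iron of dioxygenases reduced, does to m6A, the series' stated subject.

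Members were chosen by gene symbol alone, as every name that starts with NUP, KPNA, KPNB, IPO, XPO or TNPO and a digit, with XPOT, names that start with POM121, SEH1L, TPR, RANBP2 and AAAS, and without hyphenated names. The rule took 66 gene names, of which RefSeq lists 51 as protein coding and 15 as pseudogenes, with 1104 sites listed in at least 1 library. A site was tested where all 4 libraries listed it and each gave it 20 or more A plus G reads, which left 399 member sites in 52 genes, of 78509 tested sites in 10782 genes of the series. The libraries listed 132989 and 144171 sites in control and 135205 and 143518 with ascorbic acid, on 22592887 to 28562744 A plus G reads. The median share of unconverted adenosine in member genes was 2.08% and 3.48% in the controls and 2.32% and 2.47% after treatment, so that control 2 stood apart from the other libraries. Of 6 HEK293 markers 5 were listed in some library (PAX2 was not), and of 13 markers of other cell types 0 were listed, a list of methylated transcripts being only an indirect view of expression.

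The nuclear pore is built from rings of nucleoporins around a channel filled with flexible FG repeats. Importins bind cargo in the cytoplasm and let it go when they meet Ran bound to GTP in the nucleus, and exportins bind cargo together with Ran-GTP and let it go outside. m6A is placed on mRNA mostly by a METTL3-METTL14 complex, gathers in long exons and near stop codons, and can be removed by the dioxygenases FTO and ALKBH5.

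Most transcripts of the pore and its receptors lost m6A with ascorbic acid. Of 52 genes 37 fell (71.2%), 0 rose and 15 did not pass the test, beside 56.8% that fell and 0.297% that rose among all genes (edgeR quasi-likelihood test on summed A and G reads of a gene, Benjamini-Hochberg over all genes, threshold 0.05). Of the genes above control 0 had an unadjusted p under 0.05, and 0 rose with DESeq2 or limma, but KPNB1 and NUP43 rose without control 2 and KPNB1 without ascorbic acid library 2. Leaving out 1 library gave 28 to 41 genes that fell, the lowest without ascorbic acid library 1. Both treated libraries lay below both controls in 42 genes (80.8%, beside 76.7%). Of the 46 protein-coding genes 32 fell (69.6%, beside 59.8% of all protein-coding genes). By kind of protein, 18 of 25 nucleoporin genes and 15 of 22 receptor genes fell. Among single sites 145 of 399 fell (36.3%, beside 25.7% of all tested sites) and 2 rose (0.501%, beside 0.22%). Both ascorbic acid libraries lay below both controls at 253 member sites (63.4%, beside 55.4%) and above both at 20 (5.01%, beside 4.22%). The median site level was 35.7% and 36.1% in the controls and 29.2% and 29.1% after treatment, 35.9% ± 0.304 against 29.1% ± 0.0536 (SD, n = 2 each); the exact two-sided permutation test gave p = 0.333, the smallest that 2 against 2 can give. The groups of medians did not overlap, and after correction for each gene's unconverted share the difference was -7.07 points, against -6.80 as deposited. Without control 2, the library with the highest unconverted share, 117 sites and 33 genes fell.

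Member sites were read more deeply than the series as a whole, with a median of 241.5 A plus G reads per site and library against 104, and the part of depth in the shares above was not tested. Of genes with at least 3 tested sites 29 of 35 members fell, beside 68.3% of all such genes. The median site change was close to that of the series, -5.26 points for members and -4.89 for all tested sites. Among the sites that fell it was -13.0 points for members and -14.8 for all. Nothing in the labels says whether the 2 libraries of a group came from separate cultures, so p-values measure the spread between these libraries only.

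**Figure D1:**
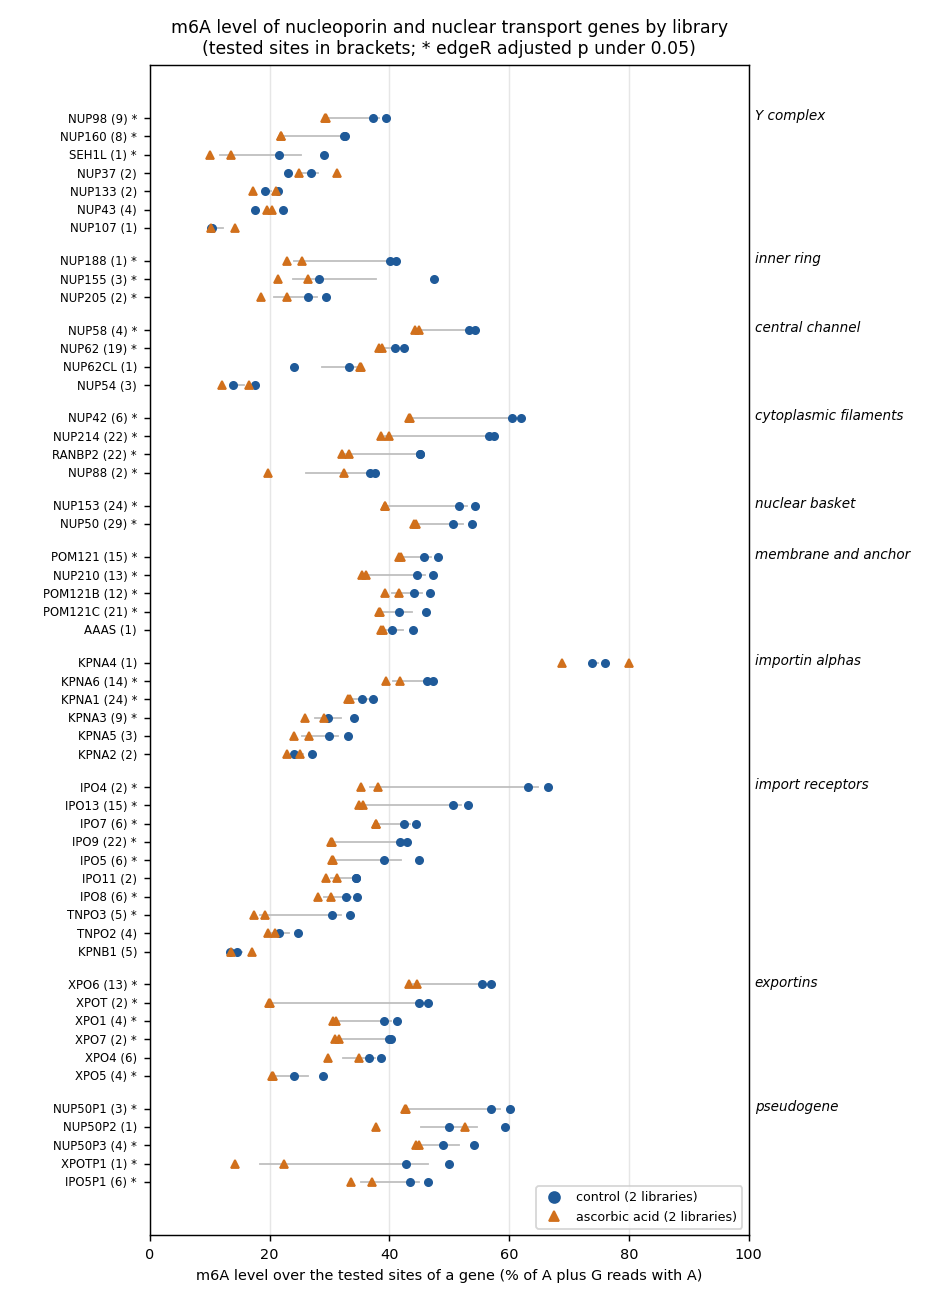
m6A level of each of the 52 genes in every library, as the percentage of A among A plus G reads summed over its tested sites (horizontal axis), with genes grouped by role; circles are the 2 control and triangles the 2 ascorbic acid libraries, grey lines join group means, brackets give the number of tested sites and asterisks mark the 37 genes that fell. XPOT and IPO4 show the widest gaps among the protein-coding genes, and the importin alphas and NUP62 narrow ones.

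A set of member sites without a single call lay exactly on the first annotated base of its gene. Background for these sites is that the first transcribed base of an mRNA, when it is an adenosine, can carry N6,2′-O-dimethyladenosine (m6Am), made by PCIF1 next to the cap, and that GLORI reads m6Am as A like m6A. At 14 member sites the listed position was the RefSeq gene start, and 0 of the 14 fell, with 0 at an unadjusted p under 0.05 and 0 called by DESeq2 or limma, against 145 of the other 385. Over all genes 6 of 718 such sites fell (0.836%) and 1 rose (0.139%), against 25.9% of sites elsewhere that fell. Sites within 50 nt after the start, but not at it, also fell seldom, 3.54% of 593 over all genes at a median of 119 reads. The 1 member site of that class did not pass. Sequences are shown for 11 start sites from the RefSeq promoter table (GRCh38.p14), with 10 bases on each side. They are DNA of the strand that reads like the mRNA, and the capital letter is the listed adenosine, at the gene start.
AAAS (chr12:53321600-53321620, minus strand): tcttttcttcActtccgttga
KPNA2 (chr17:68035725-68035745, plus strand): tgcacgagccAcacggtcttt
KPNA6 (chr1:32108046-32108066, plus strand): cagatccgccAtattgtctac
NUP205 (chr7:135557907-135557927, plus strand): tccatgcggcAgaagggctct
NUP37 (chr12:102120104-102120124, minus strand): aagcagagccAcagcgcgtcg
NUP54 (chr4:76148387-76148407, minus strand): ggagtaacctActtggtctcc
NUP62CL (chrX:107206423-107206443, minus strand): tttaagcctcAgtctcggtta
NUP88 (chr17:5419652-5419672, minus strand): tgaggggagcAgttgggccaa
POM121 (chr7:72879347-72879367, plus strand): ccacctccgcActgccctcgc
RANBP2 (chr2:108719472-108719492, plus strand): caagttcgtcAcagtggtcct
XPO6 (chr16:28211955-28211975, minus strand): ggcgctcgccActtccggcgc
In 10 of the 11 the listed adenosine followed a C, the exception being NUP54. The pair CA, read on the gene's strand with its A on the first base, was present at the start in 29.6% of 35116 RefSeq promoters, and an A of any context in 44.4%. A listed site needs an A there, so the share to set beside 10 of 11 is that of CA among promoters with an A at the start, 66.6% of all and 24 of 30 member promoters.

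KPNA2, which encodes an importin alpha, had the deepest start site, with at least 888 reads in each library. Its level there was 47.9% and 50.7% in the controls and 50.7% and 46.0% after treatment, so the groups overlapped (adjusted p = 0.754). The only other tested site of KPNA2, chr17:68042173, fell from 12.7% and 13.8% to 10.7% and 10.5% (adjusted p = 0.021), and the gene over both sites did not pass, except without control 1 (adjusted p = 0.0072). AAAS, which encodes the pore protein ALADIN, had its start as its single tested site, at 44.0% and 40.5% in the controls and 38.6% and 39.0% after treatment (adjusted p = 0.545); here the treated libraries lay below both controls. XPO6, an exportin whose cargo is profilin with actin, had 19.4% and 38.1% at its start in control and 21.2% and 26.5% with ascorbic acid, while 9 of its other 12 sites fell. RANBP2, the large filament nucleoporin, had 31.0% and 46.5% at its start in control and 37.0% and 34.9% with ascorbic acid, while 7 of its other 21 sites fell.

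Summed over the 14 start sites, the level was 36.8% and 38.5% in the controls and 38.3% and 37.8% after treatment, or 37.6% ± 1.24 against 38.1% ± 0.353 (SD, n = 2 each). Summed over the other 385 sites it was 42.7% and 44.9% in the controls and 34.6% and 34.7% after treatment, or 43.8% ± 1.55 against 34.6% ± 0.0349. The groups overlapped at the start sites and did not elsewhere. Start sites had fewer reads, a median of 64 per library against 251.5 elsewhere. Among sites of all genes with at least 50 reads in each library and a mean level of 20% to 40%, 1 of 204 start sites fell (0.49%) against 22.7% of sites elsewhere, at median depths of 144 and 154 reads. At mean levels of 60% or more 3 of 36 start sites fell (8.33%) against 56.5% elsewhere. No test was made between the classes of sites, which were set apart after their values were seen, and whether these bases carry m6Am was not tested. Start sites touched 7 of the 15 genes that did not pass, and in 3 of those, AAAS, KPNA4 and NUP62CL, they were the single tested site; they also touched 7 of the 37 genes that fell.

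**Figure D2:**
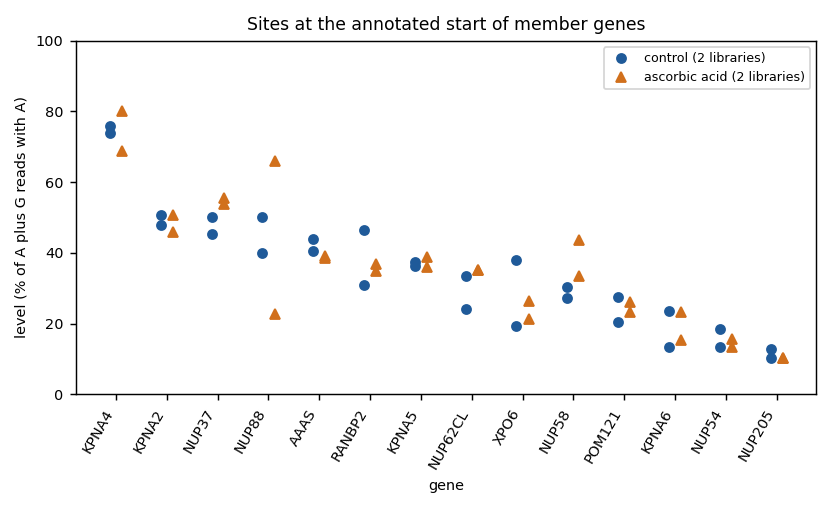
Level of the 14 member sites at the annotated gene start (vertical axis, percentage of A among A plus G reads) in each library, ordered by control mean, with circles for the 2 control and triangles for the 2 ascorbic acid libraries. The treated libraries lie on both sides of the controls, and 0 of the 14 sites fell; NUP88, with at least 31 reads in each library, spreads from 22.6% to 66.0% between the treated libraries.

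The Y complex, the outer ring scaffold of the pore, was split: NUP98, NUP160 and SEH1L fell and NUP37, NUP43, NUP107 and NUP133 did not pass. In NUP160 the level over 8 sites was 32.4% and 32.6% in the controls and 22.0% and 21.9% after treatment (log2 odds -0.78 ± 0.08, SE). Its largest fall was at chr11:47779059, 941 nt before the annotated gene end, from 89.0% and 88.4% to 50.5% and 48.6%. NUP98, from whose mRNA the Y-complex protein NUP96 is also cut, was at 37.3% and 39.4% in the controls and 29.2% and 29.4% after treatment, and 8 of its 9 sites fell. SEH1L lost its call without control 2 (adjusted p = 0.0963), without ascorbic acid library 1 (adjusted p = 0.0643) and with DESeq2 (adjusted p = 0.0755). It rested on a single site of at least 79 reads, at 21.5% and 29.1% in the controls and 10.1% and 13.5% after treatment.

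The 2 member sites that rose lay in NUP43, 6 nt apart. At chr6:149725827 the level was 11.2% and 15.1% in the controls and 17.5% and 16.9% after treatment (adjusted p = 0.0295), and at chr6:149725821 it was 10.8% and 15.1% against 17.2% and 16.5%. Both controls lay below both treated libraries, but control 2 was close to them and control 1 was not. The calls were lost without control 1 or without either treated library, with DESeq2 and with limma. The pair is close enough to share reads and sits near the 10% level under which no site is listed. Over its 4 sites NUP43 was at 17.5% and 22.3% in the controls and 20.3% and 19.5% after treatment, with overlapping groups. Without the pair the gene fell (log2 odds -0.30, adjusted p = 0.0307).

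In the inner ring, which holds the scaffold to the membrane, all 3 tested genes fell, beside 56.8% of all genes. NUP188 rested on chr9:129006927, 169 nt before the gene end, at 40.0% and 41.1% in the controls and 22.9% and 25.4% after treatment (log2 odds -1.10 ± 0.11, SE). NUP205 was at 26.3% and 29.4% against 18.6% and 22.9%, and without ascorbic acid library 1 its adjusted p was 0.129. NUP155 was at 28.3% and 47.4% in the controls and 26.4% and 21.3% after treatment; without control 2 its adjusted p was 0.371. Its site chr5:37370784, 322 nt from the gene start, was at 84.2% and 87.5% in the controls and 40.0% and 36.0% after treatment. This site had at least 38 reads per library, and the other 2 sites lay under 22%. The gene level sums reads over such unlike sites, so it also moves with the share of reads from each.

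The central channel genes encode FG nucleoporins that form the permeability barrier. NUP58 fell, from 53.3% and 54.2% to 44.3% and 45.0%. NUP62 fell by little, from 41.0% and 42.4% to 38.8% and 38.3% (log2 odds -0.19 ± 0.07, SE, adjusted p = 0.0229), a call lost when either treated library was left out. Of its 19 sites 4 fell, and the median site change was -1.48 points. Among member sites with at least 50 reads in every library NUP62 held the highest control levels, 99.2% and 97.9% at chr19:49908360 and 98.9% and 98.1% at chr19:49909100, which stood at 90.3% and 90.2% and at 88.1% and 88.0% with ascorbic acid. NUP54 was at 13.9% and 17.5% in the controls and 12.1% and 16.6% after treatment and did not pass.

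All 4 genes of the cytoplasmic filaments, where mRNA leaves the pore, fell, beside 56.8% of all genes. NUP42, a partner of the export factor GLE1, was at 60.5% and 62.0% in the controls and 43.4% and 43.2% after treatment (log2 odds -1.05 ± 0.08, SE), and 5 of its 6 sites fell. NUP214 was at 56.6% and 57.5% against 38.6% and 40.0% (log2 odds -1.04 ± 0.08, SE). RANBP2, a SUMO ligase that binds Ran, was at 45.2% and 45.0% against 33.2% and 32.0%. The spread between libraries of a group was under 1.5 points in these 3 genes, far below the difference. NUP88 was at 36.8% and 37.7% in the controls and 19.7% and 32.4% after treatment, and without ascorbic acid library 1 its adjusted p was 0.277.

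NUP153 and NUP50 of the nuclear basket carried 24 and 29 tested sites, and both fell, beside 56.8% of all genes. NUP153 was at 51.6% and 54.3% in control and 39.3% in each treated library (log2 odds -0.80 ± 0.07, SE), with 12 sites that fell. NUP50, which helps to release importin alpha from its cargo, was at 50.7% and 53.8% against 44.2% and 44.4% (log2 odds -0.46 ± 0.08, SE), with 8 sites that fell. The third basket gene, TPR, had 9 listed sites, each in a single library, and gave no tested site.

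Of the membrane proteins and their anchors, NUP210 was at 44.6% and 47.3% in the controls and 35.4% and 36.1% after treatment, and 8 of its 13 sites fell. POM121, a transmembrane nucleoporin, was at 45.8% and 48.1% against 41.6% and 41.9%. Its near-identical copies POM121C and POM121B, the latter a pseudogene in RefSeq, also fell, although POM121B lost the call without ascorbic acid library 2 (adjusted p = 0.169) and POM121C moved from -0.33 to -0.19 in log2 odds without control 2. Reads may be split among the 3 loci, so their separate values are uncertain. The same holds for NUP50 and its pseudogenes, IPO5 and IPO5P1, and XPOT and XPOTP1. Without pseudogenes and POM121 copies 30 of 44 genes and 130 of 336 sites fell.

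The importin alphas, adaptors that bind the classical nuclear localization signal, had the smallest share of fallen sites among the roles. It was 9 of 53 (17.0%), beside 25.7% of all tested sites. KPNA6 was at 46.3% and 47.2% in the controls and 39.4% and 41.8% after treatment. KPNA1, with 24 tested sites within 2688 nt, was at 35.5% and 37.3% against 33.4% and 33.2%, and 3 sites fell. KPNA3 was at 29.7% and 34.1% against 26.0% and 29.1%. Each of these 3 genes fell, with adjusted p up to 0.0358 (KPNA3), and each lost the call when ascorbic acid library 1 was left out, KPNA3 also without control 2 and KPNA1 also without ascorbic acid library 2. KPNA2, KPNA4 and KPNA5 did not pass.

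Among the import receptors of the importin beta family 7 of 10 tested genes fell, beside 56.8% of all genes. IPO4, a carrier of histones and ribosomal proteins, was at 63.2% and 66.6% in the controls and 35.3% and 38.1% after treatment (log2 odds -1.67 ± 0.10, SE). It passed in every alternative, limma and DESeq2 included. Almost all of its reads came from chr14:24180344, 125 nt before the gene end, at 64.3% and 67.1% against 35.9% and 38.6% on at least 1534 reads. IPO13, which works in both directions, was at 50.7% and 53.2% against 34.9% and 35.6%. TNPO3, the importer of SR splicing factors, was at 30.4% and 33.4% against 17.5% and 19.2% (log2 odds -1.06 ± 0.10, SE). IPO9 was at 42.9% and 41.8% against 30.2% and 30.4%, IPO5 at 39.1% and 44.9% against 30.6% and 30.4%, and IPO7 at 42.4% and 44.4% against 37.7% and 37.8%. IPO8 was at 32.8% and 34.5% against 28.0% and 30.3% (edgeR adjusted p = 0.0316). Its call was lost with limma (adjusted p = 0.0805) and with DESeq2 (adjusted p = 0.182). When 1 library was left out, the log2 odds of IPO8 ran from -0.38 to -0.23. KPNB1, the importin beta that pairs with the importin alphas, did not pass. It was at 13.3% and 14.5% in the controls and 17.1% and 13.6% after treatment. KPNB1 rose without control 2 (adjusted p = 0.043) and without ascorbic acid library 2 (adjusted p = 0.0392), and turned to -0.14 (log2 odds) without a pair of its sites 6 nt apart. IPO11 and TNPO2 did not pass either, although both treated libraries of each lay below both controls, and TNPO2 fell without control 1 (adjusted p = 0.0128).

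The exportins had the largest share of fallen sites among the roles, 18 of 31 (58.1%, beside 25.7% of all tested sites). XPO6 alone held 9 of these 18. Of the 6 exportin genes 5 fell, beside 56.8% of all genes. XPOT, the exporter of tRNA, showed the largest fall of a protein-coding member in log2 odds, though IPO4 lost more percentage points: 45.0% and 46.5% in the controls against 19.9% and 20.1% after treatment (log2 odds -1.75 ± 0.09, SE). Both of its tested sites, 37 nt apart, fell, chr12:64431606 from 56.0% and 55.1% to 23.7% and 23.9%. XPO1, the exporter of proteins with a leucine-rich export signal, was at 39.1% and 41.3% against 31.1% and 30.5%, and 3 of its 4 sites fell. XPO6 was at 55.4% and 57.0% against 44.6% and 43.3%, XPO7 at 39.9% and 40.3% against 31.6% and 31.0%, and XPO5, the exporter of pre-miRNA, at 24.0% and 28.8% against 20.6% and 20.3%. Without control 2 XPO5 moved from -0.48 to -0.30 in log2 odds, and with limma its adjusted p was 0.071. XPO4 was at 36.5% and 38.7% against 29.7% and 34.9% and did not pass (adjusted p = 0.0578); it fell without control 1 (adjusted p = 0.0259), without ascorbic acid library 2 (adjusted p = 0.0283) and without sites 6 nt from another (adjusted p = 0.0434). No test between roles was made.

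The share of sites that fell rose with the level of the site, in members and in all tested sites alike. By mean level over the 4 libraries, 12 of 110 member sites under 20% fell (10.9%, beside 8.68% of all), and 26 of 33 at 80% or more (78.8%, beside 48.7%). Members exceeded the series in each class between, with 27.3% beside 17.0%, 45.7% beside 28.9% and 69.0% beside 43.5%. Member depth was higher in every class as well, for example a median of 191.5 reads against 90 in the top class. By distance to the annotated gene end, and without RANBP2, whose annotated span runs far past its sites, 30 of 69 sites within 1000 nt fell (43.5%, beside 29.3% of all tested sites), 38 of 147 between 1000 and 5000 nt (25.9%, beside 22.6%) and 70 of 161 farther away (43.5%, beside 31.6%). The middle class was the lowest in both.

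**Figure D3:**
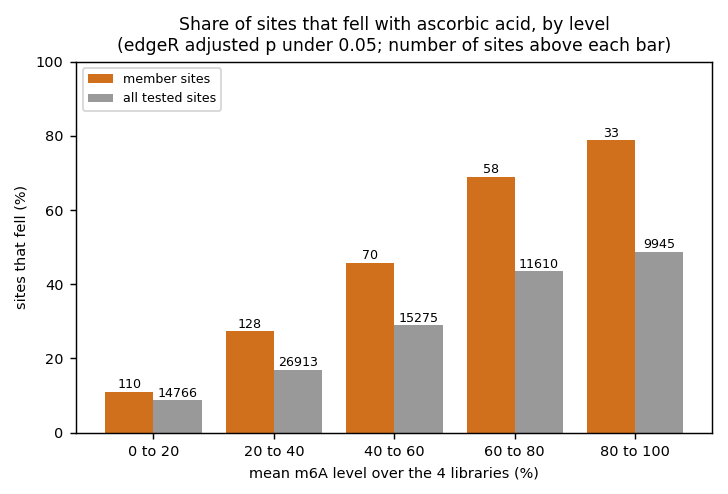
Percentage of sites that fell (vertical axis) in 5 classes of mean m6A level over the 4 libraries (horizontal axis), for member sites and for all tested sites, with the number of sites above each bar. The share climbs from 10.9% to 78.8% in members and from 8.68% to 48.7% in all tested sites, and member sites were read more deeply.

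**Figure D4:**
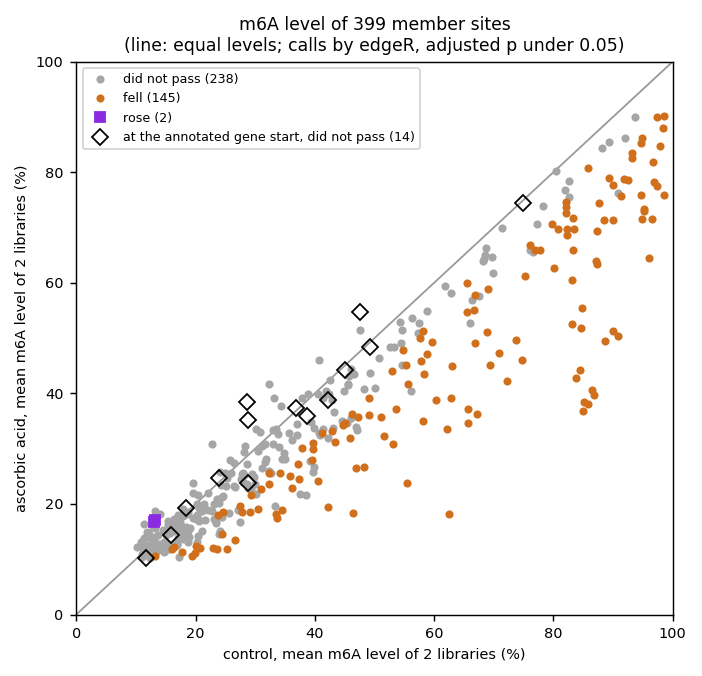
Mean m6A level of each of the 399 member sites in control (horizontal axis) and with ascorbic acid (vertical axis), 2 libraries per group, with the line of equal levels. The 145 sites that fell lie below the line and reach farthest from it at control levels above 80%, the 2 sites that rose lie near its lower end, and the 14 start sites lie along it.

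Falls of single sites were ranked over sites of 50 or more reads per library. Each gene entered with 1 site, that of its smallest p in the edgeR test. The largest of these falls were in NUP214, IPO9 and IPO13. NUP214 chr9:131198855 was at 86.3% and 83.8% in the controls and 36.6% and 37.0% after treatment (adjusted p = 1.15e-19). IPO9 chr1:201876250 was at 88.1% and 85.6% against 38.3% and 41.1%, and IPO13 chr1:43950045 at 85.6% and 84.6% against 36.9% and 40.0%. All 3 sites lost more than 45 points, with no overlap between groups. Next came RANBP2 chr2:108763531, NUP210 chr3:13316901, the NUP160 site above, XPO6 chr16:28156217, the XPOT site above, NUP42 chr7:23200558, the IPO4 site above, NUP50 chr22:45184944 and NUP153 chr6:17626022. Their mean falls ran from 41.1 points in RANBP2 to 23.7 in NUP153, and all 12 sites passed in every alternative that tested them. Outside these 12, NUP153 had a larger change at chr6:17706493, -30.0 points, on at least 188 reads per library. Of the 145 sites that fell, 41 lost more than 20 points (28.3%, beside 31.4% of all sites that fell).

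In some transcripts, sites with like control levels lost unlike amounts. The clearest case was NUP214, in 12 sites that span 1460 nt. The site chr9:131197782 stood at 92.6% and 94.9% in the controls and 89.9% and 90.2% after treatment and did not pass (adjusted p = 0.087), whereas chr9:131198660, 878 nt farther along, was at 86.2% and 86.9% against 41.4% and 39.9%. On the other side, 280 nt before the first, chr9:131197502 was at 93.6% and 98.6% against 64.3% and 64.7%. Of these 12 sites 9 fell, and their median level was 85.8% in the controls and 42.3% after treatment. The 10 sites of NUP214 within 1038 nt of the gene end were lower, with a median of 29.8% in the controls and 22.3% after treatment, and 1 of them fell. No test between sites was made. Those 10 had 41 to 158 reads per library, against 127 to 446 in the other block.

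High sites mostly fell, by different amounts. Of 57 member sites with a control level of at least 80% and at least 50 reads 51 fell. That was 89.5%, beside 68.4% of 8881 such sites of all genes, at median depths of 340 and 153 reads. Changes of the member sites ran from -48.2 to -0.11 points, with a median of -14.8, beside -9.45 for such sites of all genes. The smallest change was at KPNA3 chr13:49701134, at 80.6% and 80.2% in the controls and 83.3% and 77.3% after treatment. Among such member sites, 49 pairs from 12 genes lay within 1000 nt of each other in the same gene. The median difference between the changes of a pair was 7.45 points, and 6 pairs differed by more than 20. Those 6 were all in NUP214, except for a pair in NUP210, and such pairs were not counted over all genes. These high sites were chosen by their control level, which also enters the change, so the values are a description.

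Dense blocks in other genes differed in how many of their sites fell, beside 25.7% of all tested sites. In IPO13 15 sites within 3017 nt had a median change of -11.4 points, and 9 fell. In XPO6 3 sites within 125 nt, far upstream of the gene end, all fell, and their median level was 84.7% in the controls and 51.3% after treatment. In RANBP2 8 sites within 1601 nt had a median of 51.2% in the controls and 32.2% after treatment, and 5 fell. Upstream, 13 sites within 3873 nt had a lower median control level, 37.8%, and 34.6% after treatment. Of these 13 sites 2 fell, with a median change of -4.08 points. The part of level in this difference was not tested. The 19 sites of NUP62, within 2748 nt, and the 24 of KPNA1 had median changes of -1.48 and -2.52 points. Sites of a block share reads and are not independent.

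**Figure D5:**
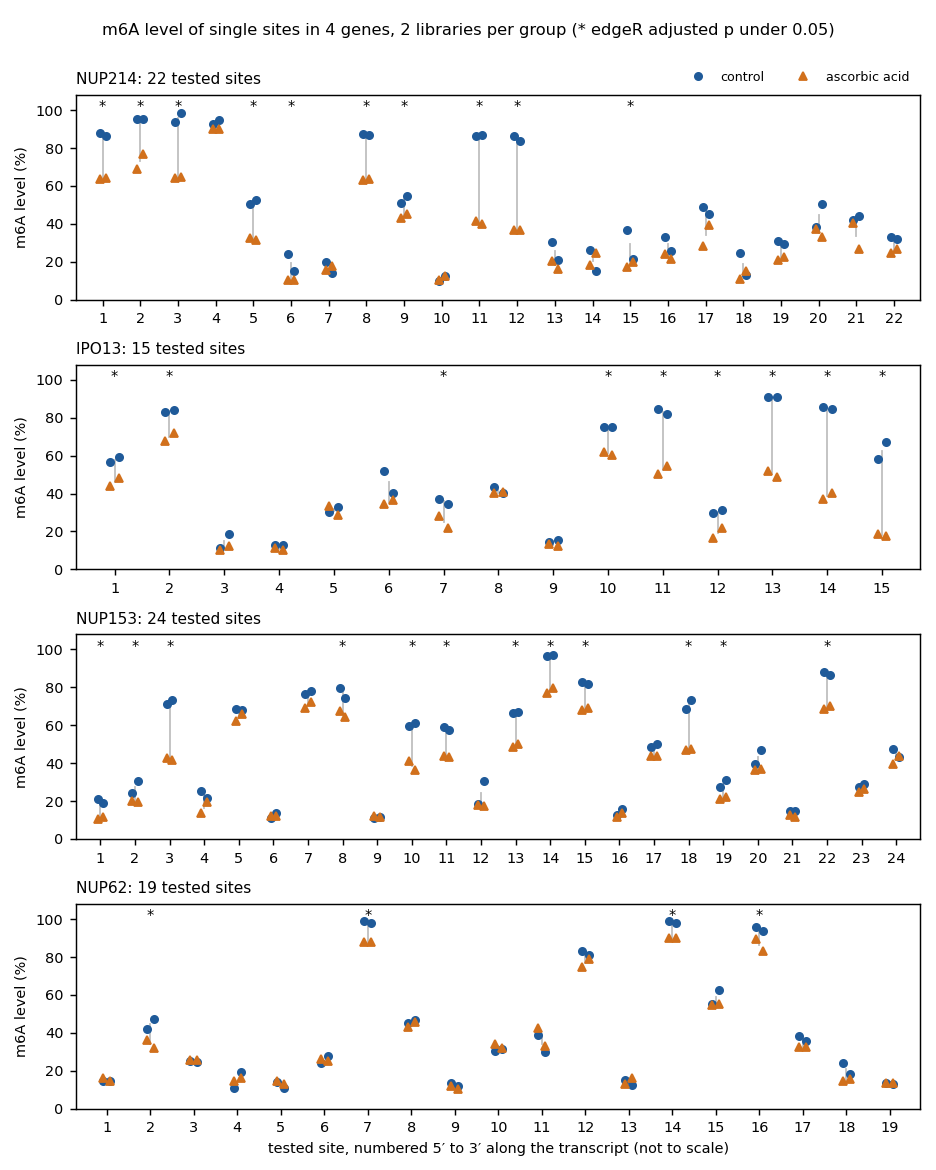
m6A level (vertical axis) of every tested site of NUP214, IPO13, NUP153 and NUP62 in each library, with sites numbered 5′ to 3′ and not spaced to scale; circles are control, triangles ascorbic acid, grey lines join group means and asterisks mark sites that fell. In NUP214 site 4 keeps 90% of its reads as A while sites 11 and 12 drop to about 40%, and most sites of NUP62 stay near their control level.

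Few member sites were listed by both libraries of 1 group and neither of the other. Of the 1104 member sites 408 were listed in all 4 libraries (37.0%, beside 38.4% of all sites) and 439 in 1 library (39.8%, beside 35.1%). A further 139 were listed in 2 libraries (12.6%, beside 14.2%) and 118 in 3 (10.7%, beside 12.3%). Both controls and no treated library listed 35 (3.17%, beside 3.04% of all sites), and both treated libraries and no control listed 18 (1.63%, beside 2.75%). Control 2, the library with the highest unconverted share and the most A plus G reads, alone listed 169 member sites (15.3%, beside 11.5% of all sites). Control 1 alone listed 78 (7.07%, beside 6.2%). Ascorbic acid library 1 alone listed 101 (9.15%, beside 7.74%) and library 2 alone 91 (8.24%, beside 9.68%). Of the 14 members with no tested site, 9 were pseudogenes and the others were TNPO1, TPR, NUP85, NUP93 and NUP35. TNPO1, transportin 1, had 18 listed sites, 15 of them in a single library, at 10.2% to 25.0%. NUP93, an inner ring gene read at up to 589 reads per site, had 5 sites at 10.0% to 18.0%, and NUP85 of the Y complex 6 sites at 10.3% to 15.4%.

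Coverage of member genes showed no call. The deposited gene coverage, scaled to a common median ratio, was tested with limma for 54 member genes: 0 passed, beside 0.295% of all genes, and 3 had an unadjusted p under 0.05 beside 14.4% of all genes. The lowest adjusted p was 0.247, for NUP210, at 312 and 309 in the controls and 358 and 344 after treatment. Differences ran from -0.19 (IPO5P1) to 0.21 (IPO7) on the log2 scale, with a median standard error of 0.06. XPOT was at 243 and 240 against 255 and 272, IPO4 at 857 and 858 against 833 and 834, and NUP214 at 169 and 164 against 173 and 166. Coverage in bulk RNA cannot tell fewer cells from less RNA per cell.

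Genes of nuclear transport outside the name rule also fell for the most part. Of 64 listed genes 50 had a tested site, of which 38 fell (beside 56.8% of all genes), 0 rose and 12 did not pass, with a median log2 odds of -0.48, beside -0.49 for members and -0.39 for all genes. All but 1 of the 12 Ran cycle and adaptor genes fell, among them RAN at 47.3% and 47.5% in the controls and 39.3% and 39.6% after treatment and its activating protein RANGAP1 at 35.5% and 37.3% against 29.3% and 29.4%. Of 17 mRNA export genes 11 fell. Among them DDX39A, a helicase, was at 59.1% and 59.9% against 31.2% and 31.1%. NXF1, the general mRNA exporter, was at 45.2% and 51.7% against 35.0% and 33.2%. MCM3AP, which encodes the pore-bound scaffold GANP, was at 57.7% and 58.4% against 35.3% and 34.6%. In the envelope SUN1, a linker to the cytoskeleton, was at 44.4% and 45.6% against 28.8% and 26.3%. SEC13, a pore gene, did not pass (edgeR adjusted p = 0.11), and both treated libraries lay above both controls. It was at 16.3% and 18.0% in the controls and 19.8% and 18.4% after treatment, with 2 sites that rose and 1 that fell. THOC3 did not pass either, with 2 sites that fell and 2 that rose.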

How the data were processed

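Each library's site list was used as deposited; per the submitters' processing notes reads were trimmed with Trimmomatic 0.39 and aligned with STAR to hg38/GRCh38, and which program called the sites, with which settings and whether after removal of duplicate reads, is not stated. Per the file headers, the deposited lists give counts of A and of A plus G reads, the level and conversion rate as a fraction, a gene coverage signal whose definition is not stated, and the authors' p-values for each site. No listed site had under 15 reads, 5 A reads or a 10% level, so a site missing from a library has no value there. Levels were recomputed from the counts and printed as percentages.

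A reads and G reads were tested with edgeR 4.0.16 (quasi-likelihood, a term per library and the treatment on the odds of A). The test ran over all 78509 sites and, summed per gene, 10782 genes. In the sums a read over several sites counts at each. A gene level and its test therefore also depend on how reads divide among sites of unlike level. Coverage was tested with limma 3.58.1 on log2 values, with no pseudocount. Scripts were tested on simulated data. Alternatives were a read minimum of 50 or none, sites 6 nt from another left out, each library left out, DESeq2 1.42.0, limma on log2 odds, a replicate term, the conversion correction and other coverage scalings. Genes named with sites were, by rule, the 12 largest falls, the rises, the 5 highest control levels and every gene with 10 or more sites. For the falls and rises a gene entered with the site of its smallest p. The start sites and the neighbouring NUP214 sites, NUP155 and KPNA3 sites were chosen after their values were seen. So were RAN, RANGAP1, SEC13 and THOC3 among the genes outside the name rule. Members and lists were chosen with earlier results of these data known. Gene spans and sequences are from RefSeq (GRCh38.p14); exon, intron and UTR status was not analysed here, and sequences of 3 start sites are not reported here. Reads may not be unique molecules.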

Additional observations from a re-analysis of the deposited data

How the results depend on the processing

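The member counts kept their direction under each alternative run. Sites that fell numbered 145, 77 with limma on log2 odds, 97 with DESeq2 and 104 to 145 when 1 library was left out. Sites that rose numbered 2, and 0 without sites 6 nt from another listed site, with limma and with DESeq2, and 0 to 2 when 1 library was left out. Genes that fell numbered 37, 25 with limma, 27 with DESeq2 and 28 to 41 when 1 library was left out; genes that rose numbered 0 to 2 then (2 without control 2, 1 without ascorbic acid library 2). Of the 37 genes 21 passed in every alternative that tested them and 16 lost the call in at least 1: IPO5P1, IPO8, KPNA1, KPNA3, KPNA6, NUP155, NUP205, NUP50P3, NUP62, NUP88, POM121, POM121B, POM121C, SEH1L, XPO5 and XPO7. The median difference ran from -7.07 to -6.50 points, and no member's coverage passed in any alternative.

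Genes that did not pass turned direction in log2 odds as follows; the cause was not tested. When 1 library was left out, KPNA4 ran from -0.42 to 0.43, KPNB1 from -0.042 to 0.35, NUP107 from -0.0043 to 0.53, NUP133 from -0.29 to 0.076, NUP37 from -0.027 to 0.43, NUP43 from -0.21 to 0.23 (adjusted p = 0.0304, without control 2) and NUP54 from -0.45 to 0.084. KPNB1 was at -0.14 without sites 6 nt from another, NUP37 at -0.13 with at least 50 reads, and NUP43 at 0.012 with limma and 0.0055 with DESeq2.

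With the replicate number as a block 146 sites and 38 genes fell, the added gene being XPO4 (adjusted p = 0.0491), 2 sites rose, the median difference stayed at -6.80 points and NUP43 was at 0.0015. Deviations of same-numbered libraries from their group means had a correlation of -0.0053 over 78509 sites, so the numbers were not taken as pairs. With 2 libraries a group and a floor of 15 reads and a 10% level, sites of few reads or low level limit what could be called. Without pseudogenes and POM121 copies, added after seeing the data, 30 genes and 130 sites fell.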
